A study of Mus musculus with 4 samples.

Results

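The genes described here encode the nuclear subunits of the mitochondrial respiratory chain and of ATP synthase, with cytochrome c. They were taken as the genes whose symbols begin with Nduf, Uqcr, Cox4 to Cox8 or Atp5, together with Sdha, Sdhb, Sdhc, Sdhd, Cyc1 and Cycs, without assembly factors. The platform annotation gave 97 probe sets with a single such symbol, for 71 genes of 8251 genes named on the array. Each gene was represented by its probe set with the highest mean over the 4 arrays. A further 10 probe sets that carry several symbols, one of them of these families, were left out.

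RNA of soleus, a slow calf muscle, was compared between HSL-null mice, which lack hormone-sensitive lipase (the product of Lipe), and wildtype mice. The labels call each of the 2 arrays of a genotype a technical duplicate, of muscle pooled from 5 female mice aged 6 months. They were taken here as duplicates of 1 pool per genotype, which the labels do not state in so many words. On that reading no test across animals can be made, and every error below is that of duplicate arrays. The sources used here do not give the strain, the allele or the disrupted part of Lipe, and the pooling leaves no value for a single animal.

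The respiratory chain lies in the inner mitochondrial membrane. Complex I takes electrons from NADH and complex II from succinate, and both pass them to ubiquinone. Complex III passes them on to cytochrome c, complex IV passes them to oxygen, and complex V (ATP synthase) uses the proton gradient to make ATP. Some complex IV subunits occur in a muscle form and in a widely expressed form, and slow muscle such as soleus is rich in mitochondria.

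Intensities are on a linear scale and had been scaled before deposit, with a trimmed mean of 100.1 on every array. The filter kept probe sets whose mean over the 4 arrays reached the table's median (intensity 27.7), which left 6208 probe sets and 64 of the 71 genes. Lipe measured 16.2 and 19.4 on the HSL-null arrays and 71.4 and 70.2 on the wildtype arrays, 3.99-fold lower in HSL-null. All 7 slow fibre markers fixed for the check of the tissue were above the filter, with Tnnt1 at 6183 and 5940 in HSL-null and 6089 and 5646 in wildtype. For the beta-actin control, the 3′ probe set divided by the 5′ one gave 0.816 and 0.823 in HSL-null, against 0.688 and 0.706 in wildtype. The same ratio for Gapdh was 0.922 and 0.912 in HSL-null, against 0.955 and 0.927 in wildtype.

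Subunit genes differed little between the pools, and most of the small differences were towards higher levels in HSL-null. Of the 64 genes above the filter, 49 lay above 0 and 15 below, and the median log2 difference (HSL-null minus wildtype) was 0.053, or 3.76% higher. The median over all 6208 probe sets was -0.0022. In such bulk RNA, fewer cells of a type and less RNA per cell cannot be told apart. No subunit gene was separated by 1.5-fold, meaning that each of the 4 array pairs differed in the same direction and by 1.5-fold or more. Of all probe sets 0.451% were separated in this way, 0.226% higher in HSL-null and 0.226% lower, so that a count of 0 among 64 stands close to the background. The error of duplicates was of the size of the differences themselves, with a median standard error of 0.063 for a subunit gene. Of the 64 differences, 13 exceeded 2 standard errors. The share of all probe sets beyond that limit was not computed, and each error rests on only 2 arrays per pool. The 13 are therefore not a count of genes that differ.

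A weaker criterion asked only that the 2 HSL-null arrays did not overlap with the 2 wildtype arrays. By it 22 of 64 subunit genes (34.4%) were higher in HSL-null, against 19.5% of all probe sets, and 1 (1.56%) was lower, against 21.1%. Most subunit probe sets are bright, however, and bright probe sets as a whole leaned the same way. Among the 353 probe sets with a mean intensity at or above 1000, a level chosen after the values were seen, 30.6% were higher in HSL-null without overlap and 13.9% lower. At that level 17 of 47 subunit genes (36.2%) were higher without overlap and 0 lower, while among the other 306 probe sets 91 (29.7%) were higher and 49 (16.0%) lower. The bright subunit genes had a median of 0.054, with 40 of 47 above 0, and the other bright probe sets a median of 0.031, with 204 of 306 above 0. The 17 subunit genes below intensity 1000 had a median of 0.033.

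**Figure D1:**
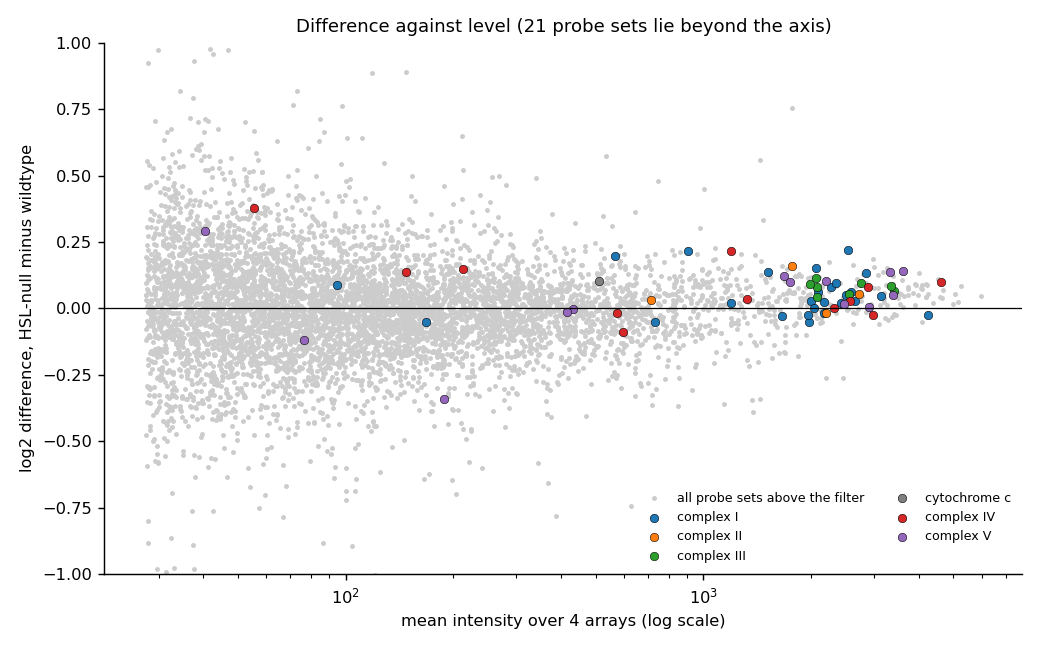
Log2 difference (HSL-null minus wildtype) against the mean intensity over the 4 arrays (log scale), with all 6208 probe sets above the filter in grey and subunit genes coloured by complex. Most subunit genes sit above intensity 1000 in a narrow band around a median of 0.054, where the grey points also lean above 0, and 21 probe sets lie beyond the vertical axis.

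The median depended on which arrays were paired. It was 0.073 for HSL-null 1 minus wildtype 1, 0.085 for HSL-null 1 minus wildtype 2, 0.020 for HSL-null 2 minus wildtype 1 and 0.048 for HSL-null 2 minus wildtype 2. All of these were above 0, with 43, 55, 36 and 41 of the 64 genes above 0 on those pairs. Within a genotype the second array was lower than the first by a similar amount, with a median log2 difference of -0.046 in HSL-null and -0.041 in wildtype.

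**Figure D2:**
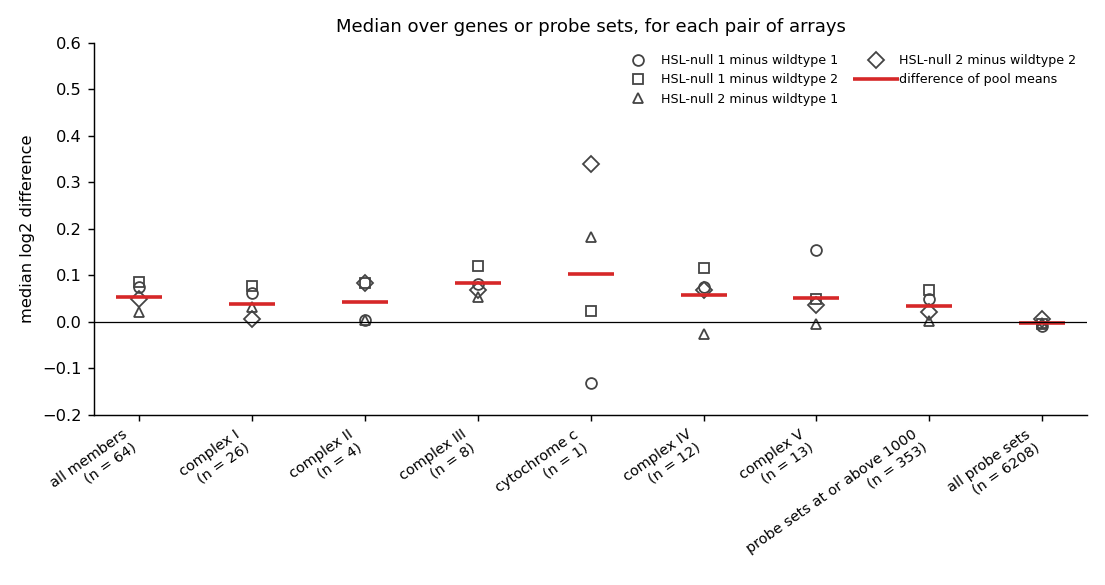
Median log2 difference of the subunit genes, of each complex, of bright probe sets and of all probe sets, for each pair of an HSL-null and a wildtype array (open symbols) and for the pool means (bars). Complex III lies above 0 for all 4 pairs, between 0.053 and 0.12, while complexes IV and V each have 1 pair below 0, at -0.027 and -0.0047.

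The 22 genes that were higher without overlap belonged to every complex, but not to cytochrome c. They comprised 9 of 26 genes of complex I, 2 of 4 of complex II, 5 of 8 of complex III, 3 of 12 of complex IV and 3 of 13 of complex V. The result depends on the scaling of the arrays. With quantile normalization 13 of these 22 genes remained higher without overlap, and the median of all subunit genes was 0.013. In all, 14 of 64 genes were then higher and 8 lower, while 20.1% of all probe sets were higher and 20.7% lower, so that the share of higher genes stood close to the background. The same 13 genes remained so under median centring and cyclic loess too: Ndufab1, Ndufa2, Ndufa6, Ndufb3, Ndufb6, Ndufs1, Ndufs4, Sdhd, Uqcr10, Cox6b1, Cox7b, Cox8c and Atp5l.

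**Figure D3:**
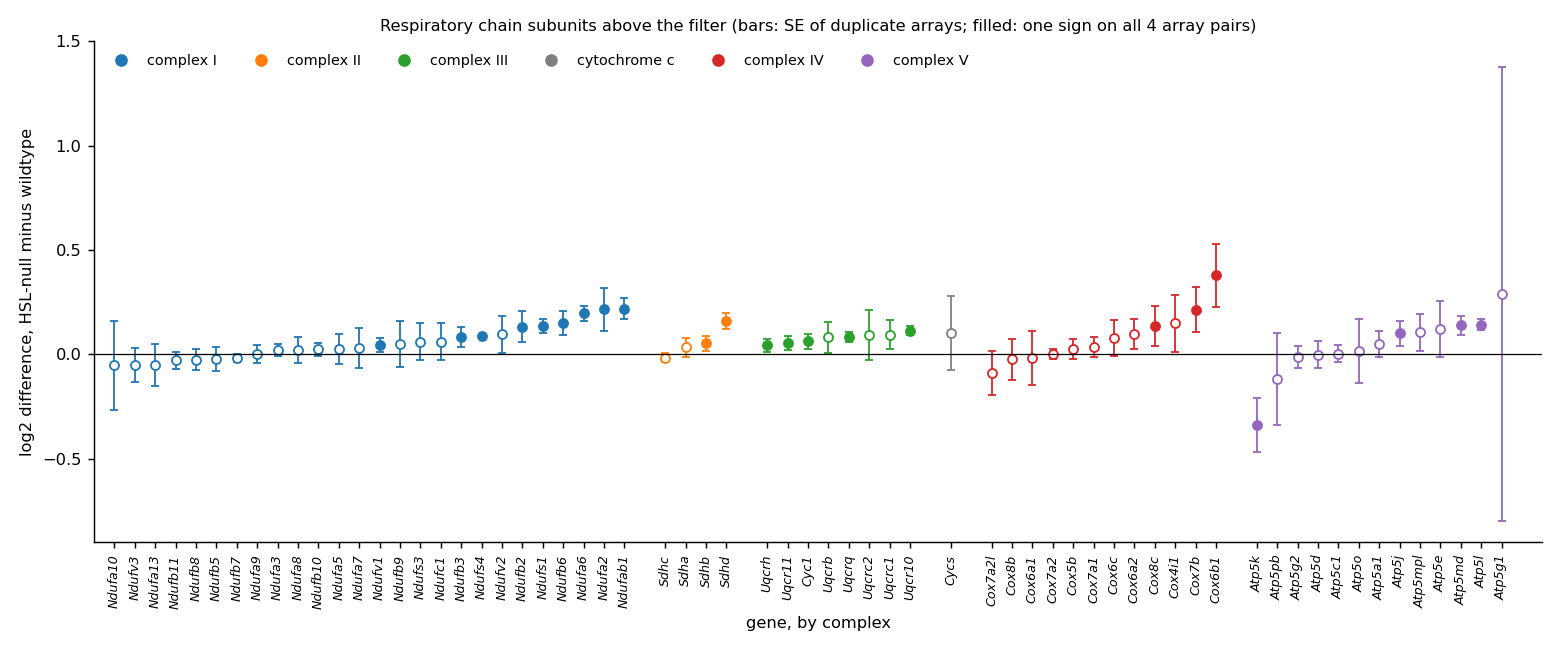
Log2 difference (HSL-null minus wildtype) of the 64 subunit genes above the filter, ordered within each complex, with bars for the standard error of duplicate arrays and filled points where the 2 HSL-null arrays do not overlap with the 2 wildtype arrays. All 8 complex III genes lie above 0, Atp5k is the single filled point below 0, at -0.34, and the long bar belongs to Atp5g1 (0.29 ± 1.09).

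Promoter sequence was set beside these differences, since nuclear respiratory factors are known to bind promoters of many subunit genes. RefSeq promoters (GRCm38.p6, 250 bases before to 50 after a transcript start) were found for 57 of the 71 genes, in 62 promoters. The letters TGCGCA, the core bound by NRF-1, occurred in 16 of 62 promoters (25.8%), against 7.76% of all 32851 promoters. The letters CCGGAAG, an ETS-type site of the kind bound by NRF-2 (GABP), occurred on either strand in 15 (24.2%), against 8.86%. Both motifs hold CG pairs, and subunit promoters had a median of 19 CG pairs, against 7 in all promoters, with 58.8% and 52.7% G and C. The motif for ERR, TCAAGGTCA, was found in 1 subunit promoter, that of Sdhd (1.61%, against 0.423% of all promoters). That for YY1 was found in 3, those of Atp5j, Ndufa9 and Ndufs4 (4.84%, against 0.852%). Of the muscle motifs, that of MEF2 was found in 1 (1.61%, against 3.69%) and the E-box CAGCTG in 4 (6.45%, against 16.3%). A match describes these letters only and does not show that a factor binds there.

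Atp5l, Cox6a1, Ndufb6 and Sdhd had both the NRF-1 and the GABP letters. Cox8b, a muscle form, had the E-box without either, and so did Ndufv2 of complex I. Ndufa8 and Ndufb10 had the E-box with the NRF-1 letters, and the muscle form Cox7a1 had no E-box. Windows of Atp5l, Cox6a1, Ndufb6, Sdhd and Cox8b upstream of the start are shown 5′ to 3′ on the strand of the gene, with the match in capitals.
Sdhd NRF-1, distal: tcctcgtaccTGCGCAgtgaattgcg
Sdhd NRF-1, proximal: ttcgctggggTGCGCAcgcgcggtgg
Sdhd GABP: cgtctcctgcCTTCCGGttcacgcttc
Ndufb6 NRF-1: gagagggcttTGCGCAtgagcagagc
Ndufb6 GABP: cgtccttgttCTTCCGGtcccctcccc
Atp5l NRF-1: caataacgcaTGCGCAtttcccccac
Atp5l GABP: cttcaccgatCTTCCGGaccaacatga
Cox6a1 NRF-1: acggataaagTGCGCAggcgctggag
Cox6a1 GABP: cccatttccgCTTCCGGcgcgccggt
Cox8b E-box: tgacaggagaCAGCTGcagctctcca
The Sdhd windows lie on the minus strand at chr9:50604023-50604048, chr9:50603914-50603939 and chr9:50603879-50603905. Those of Ndufb6 lie on the minus strand at chr4:40279484-40279509 and chr4:40279637-40279663. Those of Atp5l are at chr9:44920964-44920989 and chr9:44920938-44920964, also on the minus strand. Those of Cox6a1 are at chr5:115349061-115349086 and chr5:115348959-115348984, and that of Cox8b at chr7:140900450-140900475, all on the minus strand. In each GABP window above, CTTCCGG is the motif read on the other strand.

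The differences were then split by the GABP letters, after the values were seen and with no test. Above the filter, 9 of 14 genes with CCGGAAG (64.3%) were higher without overlap and 1 (Atp5k) was lower, with a median of 0.080. Of 36 genes without it, 8 (22.2%) were higher and 0 lower, with a median of 0.025. Among all probe sets 19.5% were higher and 21.1% lower, and among those at or above intensity 1000 the shares were 30.6% and 13.9%. Without the letters the share higher was close to the 19.5%, but the 0 lower was not close to the 21.1%. Under quantile normalization 4 of 14 (28.6%) were higher and 2 lower with the letters, with a median of 0.029. Without them 6 of 36 (16.7%) were higher and 5 lower, with a median of -0.010, beside 20.1% higher and 20.7% lower among all probe sets. Under cyclic loess 7 of 14 were higher and 2 lower with the letters, and 8 of 36 higher and 3 lower without. All probe sets then gave 20.5% higher and 20.4% lower. Under median centring the counts were 9 and 1 of 14 with the letters and 9 and 0 of 36 without, beside 22.2% and 18.1%. For TGCGCA, 4 of 15 genes with the letters were higher without overlap (median 0.027), against 13 of 35 without them (median 0.045).

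Complex I genes had a median of 0.037 over 26 genes (-0.0014 with quantile normalization), with 19 above 0, 9 higher without overlap and 0 lower. Ndufab1, which encodes the mitochondrial acyl carrier protein that is also a complex I subunit, measured 2658 and 2789 in HSL-null and 2400 and 2282 in wildtype. Both HSL-null arrays lay above both wildtype arrays, and the difference of 0.22 ± 0.050 (log2, SE of duplicates) was the highest in the complex. Ndufa2, an accessory subunit of the NADH-oxidising part, measured 918 and 1029 in HSL-null and 874 and 801 in wildtype, a difference of 0.22 ± 0.10. Its arrays did not overlap, but the lower HSL-null array stood only 0.071 (log2) above the higher wildtype array. Ndufa6, an accessory subunit, measured 609.8 and 596.5 in HSL-null and 514.9 and 537.9 in wildtype, a difference of 0.20 ± 0.035 and thus 1.15-fold. Here the gap of 0.15 between the pools was wider than the spread of either pair of duplicates.

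Other complex I genes differed by less. Ndufb6, of the membrane arm, measured 2261 and 2098 in HSL-null and 1985 and 1940 in wildtype (0.15 ± 0.057). Ndufs1, which carries iron-sulphur clusters of the NADH-oxidising part, measured 1573 and 1602 in HSL-null and 1475 and 1414 in wildtype (0.14 ± 0.033). Both were higher without overlap. Ndufs4, an accessory subunit whose loss causes mitochondrial disease, measured 97.1 and 98.4 in HSL-null and 92.0 and 91.8 in wildtype, a difference of 0.089 ± 0.010 with very close duplicates. Ndufa10 had the lowest difference, at -0.052 ± 0.21, with 167.6 and 160.9 in HSL-null between the wildtype values of 197.2 and 147.0. Its groups overlapped fully.

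Within complex I the NADH-oxidising part (N module) had 5 of 6 genes above 0 and 4 higher without overlap (Ndufa2, Ndufs1, Ndufs4 and Ndufv1), with a median of 0.092. The exception was Ndufv3, at -0.052 ± 0.081. Among the 4, Ndufv1 was higher by a gap of only 0.0052 and did not remain so under every scaling. The 9 beta subunits of the membrane arm had 5 above 0, 3 higher without overlap (Ndufb2, Ndufb3 and Ndufb6) and a median of 0.023. The beta subunits Ndufb5, Ndufb7, Ndufb8 and Ndufb11 lay between -0.028 and -0.018. The ubiquinone-reducing part had 2 genes here, Ndufs3 at 0.060 ± 0.088 and Ndufa5 at 0.027 ± 0.072, both with overlap. Among all probe sets 19.5% were higher and 21.1% lower without overlap, with 30.6% and 13.9% among those at or above intensity 1000. No module was computed under another scaling, and with quantile normalization complex I as a whole had a median of -0.0014. This grouping by module was made after the values were seen, and no difference between modules was tested.

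The 4 subunits of complex II, succinate dehydrogenase, differed by unequal amounts. Sdhd, one of the membrane anchors, measured 1916 and 1815 in HSL-null and 1663 and 1677 in wildtype, a difference of 0.16 ± 0.040 and thus 1.12-fold, without overlap. Sdhc, the partner anchor, measured 2205 and 2185 in HSL-null and 2252 and 2188 in wildtype, a difference of -0.016 ± 0.022 with overlap. Of the anchors, Sdhd alone was without overlap, and the difference between them was not tested. Sdhb, the iron-sulphur subunit, measured 2796 and 2765 in HSL-null and 2746 and 2614 in wildtype (0.054 ± 0.037), without overlap, but its difference was -0.0095 with quantile normalization. Sdha, the flavoprotein that oxidises succinate, measured 719 and 728 in HSL-null and 729 and 686 in wildtype (0.033 ± 0.045), with overlap.

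Complex III was the one complex with more than 1 gene in which every gene lay above 0. Its 8 genes spanned 0.044 to 0.11, with a median of 0.083, and 5 were higher without overlap. Uqcr10, a small subunit, measured 2178 and 2124 in HSL-null and 2006 and 1973 in wildtype, a difference of 0.11 ± 0.022 and thus 1.08-fold. Uqcrq, another small subunit, measured 3476 and 3410 in HSL-null and 3291 and 3203 in wildtype (0.085 ± 0.024). In both genes the gap between the pools was wider than the difference between duplicates in the deposited scaling. With quantile normalization the differences were 0.064 for Uqcr10 and 0.020 for Uqcrq, and Uqcrq was not among the 13 genes that remained higher without overlap under every scaling. Cyc1, the catalytic cytochrome c1, measured 3578 and 3418 in HSL-null and 3380 and 3313 in wildtype (0.064 ± 0.036), and the lower HSL-null array stood 0.016 above the higher wildtype one. Uqcr11 and Uqcrh, small accessory subunits, were higher without overlap by still narrower gaps of 0.0055 and 0.0099, at 0.053 ± 0.034 and 0.044 ± 0.032. With quantile normalization Uqcrh lay at -0.015 and the median of the complex at 0.033. The core subunits Uqcrc1 (0.094 ± 0.071) and Uqcrc2 (0.093 ± 0.12) and the small subunit Uqcrb (0.081 ± 0.073) had overlapping arrays.

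Cycs, which encodes the somatic cytochrome c that carries electrons from complex III to complex IV, gave no direction. It measured 472.9 and 588.4 in HSL-null and 518.5 and 465.5 in wildtype, a difference of 0.10 ± 0.18. The HSL-null arrays lay on either side of wildtype array 1.

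Complex IV, cytochrome c oxidase, had a median of 0.056 over 12 genes (0.0071 with quantile normalization). Of the 12 genes, 9 lay above 0, 3 were higher without overlap and 0 lower. Cox6b1, a subunit on the side facing the intermembrane space, measured 56.3 and 69.4 in HSL-null and 47.9 and 48.3 in wildtype. Its difference of 0.38 ± 0.15, or 1.30-fold, was the highest among the 64 genes, on a dim probe set. Its probe set carries the suffix _r, one of several suffixes given to probe sets that can share probes with related sequences or were chosen under relaxed rules. Cox7b, a small subunit, measured 1267 and 1292 in HSL-null and 1189 and 1023 in wildtype (0.21 ± 0.11), without overlap. Cox8c, a further form of subunit 8, measured 154.6 and 153.1 in HSL-null and 149.8 and 131.0 in wildtype (0.14 ± 0.097), also without overlap. For Cox7b and Cox8c the wildtype duplicates differed by more than the gap between the pools. Cox7a2l, which takes part in joining complexes III and IV into supercomplexes, had the lowest difference, with 600.4 and 554.7 in HSL-null and 578.0 and 652.7 in wildtype (-0.090 ± 0.10), and its arrays overlapped.

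The shifts of muscle forms of complex IV subunits relative to the widely expressed forms lay within the error of duplicates. Cox6a2, the muscle form of subunit 6a, measured 4979 and 4579 in HSL-null and 4582 and 4338 in wildtype (0.099 ± 0.072). Its arrays overlapped by a narrow margin. Cox6a1, the widely expressed form, measured 606.8 and 530.8 in HSL-null and 540.2 and 610.5 in wildtype (-0.017 ± 0.13), with full overlap. The shift of Cox6a2 relative to Cox6a1 was 0.12 ± 0.15, between -0.048 and 0.28 over the 4 array pairs, and -0.012 without wildtype array 2.

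Subunit 7a gave a tighter comparison. Cox7a1, the muscle form, which brown fat also expresses, measured 1363 and 1319 in HSL-null and 1347 and 1273 in wildtype (0.034 ± 0.047). Cox7a2, the widely expressed form, measured 2343 and 2313 in HSL-null and 2360 and 2290 in wildtype (0.0021 ± 0.024), and both sets of arrays overlapped. The shift of Cox7a1 relative to Cox7a2 was 0.032 ± 0.053, between -0.0016 and 0.065 over the 4 array pairs. Cox8b, the muscle form of subunit 8, measured 3153 and 2766 in HSL-null and 2939 and 3069 in wildtype (-0.024 ± 0.099). Its widely expressed partner Cox8a was below the filter, at 2.2 and 10.4 in HSL-null and 4.4 and 4.1 in wildtype, so that no shift was computed. Cox4i1, the widely expressed form of subunit 4, measured 243.0 and 206.5 in HSL-null and 211.9 and 192.6 in wildtype (0.15 ± 0.14), with overlap, and its lung form Cox4i2 was not analysed here.

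**Figure D4:**
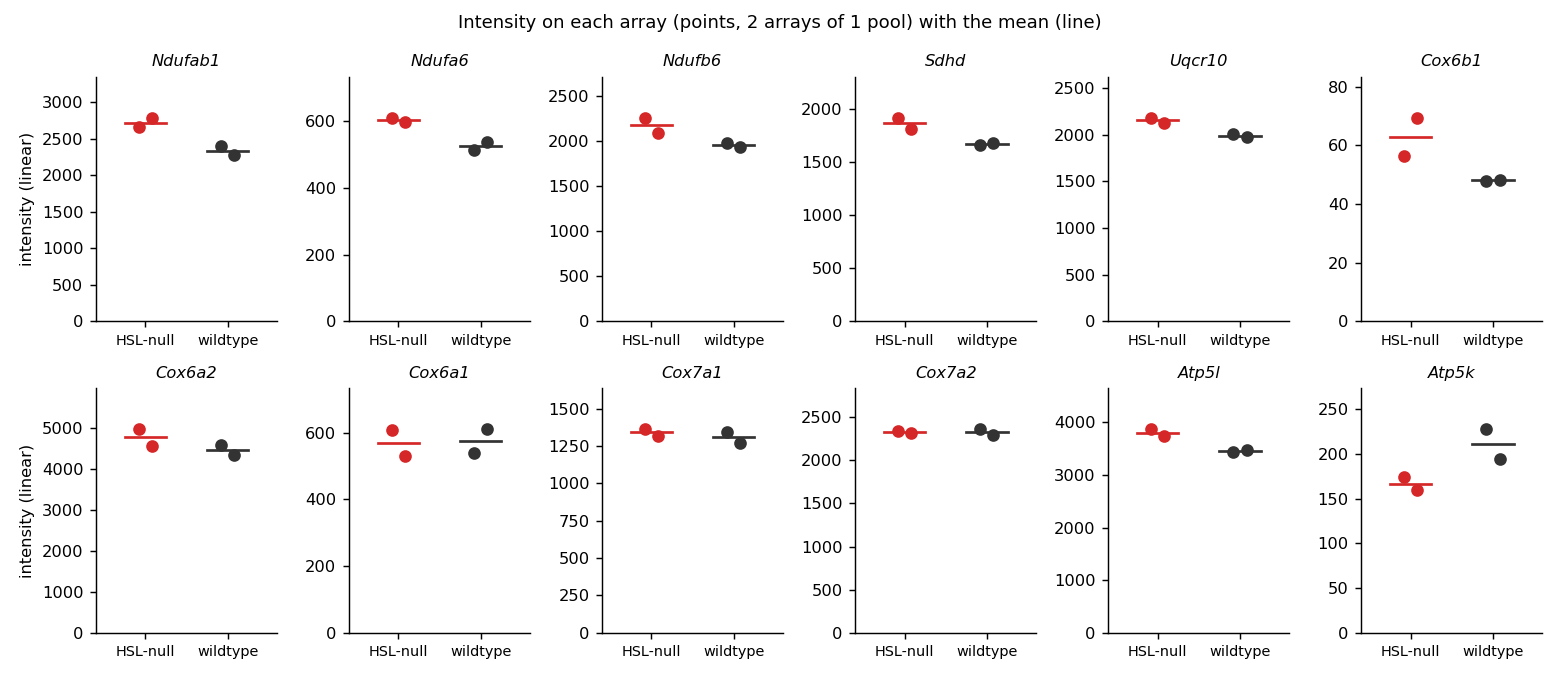
Intensity (linear, axes from 0) on each of the 2 arrays per genotype, with HSL-null left of wildtype and a line at the mean, for 12 subunit genes. The arrays do not overlap for Ndufab1, Ndufa6, Ndufb6, Sdhd, Uqcr10, Cox6b1, Atp5l and Atp5k, and they overlap for the isoform pairs Cox6a2 and Cox6a1, and Cox7a1 and Cox7a2.

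Complex V had the widest range of differences, from -0.34 to 0.29, and held the single subunit gene that was lower without overlap. Atp5k, which encodes the membrane subunit e, measured 173.8 and 159.1 in HSL-null and 227.6 and 194.6 in wildtype. Its difference was -0.34 ± 0.13, or 1.27-fold lower, and lay between -0.34 and -0.32 under the 4 scalings tried. Atp5l, which encodes subunit g, measured 3868 and 3737 in HSL-null and 3428 and 3465 in wildtype, a difference of 0.14 ± 0.026 without overlap. Subunits e and g are neighbours in the membrane part and are known to hold ATP synthase dimers together. Their genes differed in opposite directions between these pools under each of the 4 scalings, though the difference of Atp5l was 0.067 with quantile normalization and 0.11 with cyclic loess. Another small membrane subunit, Atp5md (also known as DAPIT), measured 3540 and 3414 in HSL-null and 3081 and 3236 in wildtype (0.14 ± 0.044), without overlap, on a probe set with the suffix _f.

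The remaining complex V genes differed by less than their error or not much more. Atp5j, the coupling factor 6 of the stalk, measured 1885 and 1736 in HSL-null and 1673 and 1701 in wildtype (0.10 ± 0.061), without overlap. The F1 head, where ATP is made, had 4 genes between -0.0015 and 0.12 with a median of 0.027, and 0 without overlap. Among them Atp5a1, the alpha subunit, measured 3447 and 3439 in HSL-null and 3473 and 3186 in wildtype (0.050 ± 0.062). Atp5g1, one of the genes for the ring subunit c, had the highest difference of the complex by its mean but no usable precision. Its values, on a probe set with the suffix _r, were 25.2 and 60.6 in HSL-null and 17.3 and 59.1 in wildtype (0.29 ± 1.09). Duplicates thus differed far more than genotypes did. A second probe set without a suffix, just below the filter, went the other way. It measured 26.6 and 24.0 in HSL-null and 27.5 and 28.6 in wildtype (-0.15 ± 0.079), without overlap.

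The 7 genes below the filter were Ndufa1, Ndufa12, Ndufc2, Cox5a, Cox6b2, Cox8a and Atp5j2, and 4 of them were at or below the floor of 5.7 on at least 1 array. Only Atp5j2, the membrane subunit f, did not overlap between the pools, with 12.2 and 16.7 in HSL-null and 7.1 and 9.1 in wildtype. At these dim levels no fold is given.

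More than 1 probe set lay above the filter for 8 genes. For Ndufb2 the second probe set was higher without overlap as well, at 0.084 ± 0.036 beside 0.13 ± 0.075, and both probe sets carry a suffix. For Atp5l the second, dim probe set was at 0.39 ± 0.24, also without overlap. For Cyc1 it was at 0.17 ± 0.38, with overlap. The 3 probe sets of Atp5d lay between -0.0077 and -0.00012, and the one at -0.0077 was lower without overlap. For Cox8b and Ndufa3 the second probe set was at -0.059 ± 0.31 and 0.21 ± 0.34. For Ndufv2 and Atp5c1 it was at 0.0037 ± 0.010 and 0.0083 ± 0.043, and in all of these genes it overlapped. Of the 64 genes, 46 were measured by a probe set without such a suffix. Of these 36 lay above 0, 18 were higher without overlap and 1 lower, in the deposited scaling. Among all probe sets 19.5% were higher and 21.1% lower, and among those with a mean at or above 1000 the shares were 30.6% and 13.9%.

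Genes that work with the chain were described from lists fixed for this purpose, and their counts without overlap stand beside 19.5% higher and 21.1% lower among all probe sets. Of 16 assembly factors above the filter, 11 lay above 0 (median 0.047), 5 were higher without overlap and 2 lower. The largest of these was Tmem70, needed to build ATP synthase, with 233.2 and 203.1 in HSL-null and 276.2 and 234.5 in wildtype (-0.23 ± 0.15). Coa6 and Lrpprc were higher without overlap, at 0.12 ± 0.088 and 0.10 ± 0.071. Of 15 carriers and partners 11 lay above 0 (median 0.032) and 2 were higher without overlap, Atpif1, which encodes the inhibitor of ATP synthase (0.16 ± 0.085), and Ucp3, an uncoupling protein of muscle (0.074 ± 0.052). Of 6 ubiquinone synthesis genes 3 lay above 0, with 2 higher and 1 lower without overlap (Coq5 at 0.11 ± 0.043, Coq7 at 0.069 ± 0.038 and Coq4 at -0.16 ± 0.055). Of 18 genes of import and the inner membrane 11 lay above 0 (median 0.0058), with 5 higher and 1 lower without overlap. Timm44, which tethers the import motor, measured 231.3 and 221.1 in HSL-null and 177.8 and 167.1 in wildtype (0.39 ± 0.055). Mfn1, which fuses mitochondria, was at 0.30 ± 0.11, and Timm9, a small import chaperone, at -0.17 ± 0.067.

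Genes listed as regulators, among them some that act within mitochondria (Polrmt and Sirt3), showed no common direction. Of 11 above the filter 6 lay above 0 (median 0.040), with 2 higher and 2 lower without overlap. Polrmt, the mitochondrial RNA polymerase, measured 78.7 and 69.7 in HSL-null and 105.8 and 92.4 in wildtype (-0.42 ± 0.13), without overlap. Sirt3, a mitochondrial deacetylase, was at 0.17 ± 0.088 and Gabpb1, the partner chain of the factor that binds the GABP letters, at -0.12 ± 0.073. Gabpa, its DNA-binding chain, was at -0.029 ± 0.11 and Esrra, which encodes ERR alpha, at -0.049 ± 0.13, both with overlap and chosen after their values were seen.

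Markers of fibre type and of other cells were summed on each array. The summed level of the 7 fast fibre markers was 17599 and 17626 in HSL-null, against 14527 and 13266 in wildtype, with Myh4 at 1897 and 1782 in HSL-null and 279 and 277 in wildtype. The markers Myh4, Actn3 and Pvalb differed by 2.72, 1.61 and 0.75 (log2), whereas Myh1, Tnnt3 and Atp2a1, which make up most of the sum, overlapped, at 0.11, 0.044 and 0.053. The sum of the 7 slow fibre markers overlapped, with 33379 and 32182 in HSL-null and 32875 and 30781 in wildtype. White adipocyte markers summed to 266 and 255 in HSL-null and 374 and 347 in wildtype over 4 genes, of which 3 were above the filter and all 3 lay below 0. Most of this difference was that of Adipoq, at 73.5 and 74.1 in HSL-null and 150.2 and 157.2 in wildtype. Fabp4 differed by less, without overlap (-0.18 ± 0.11), and Lep overlapped (-0.10 ± 0.21). Brown adipocyte markers summed to 107.0 and 93.8 in HSL-null and 105.2 and 96.8 in wildtype over 4 genes, with 1 above the filter, and Ucp1, their defining gene, was below the filter. Heart markers summed to 132 and 127 in HSL-null and 136 and 133 in wildtype over 5 genes. The part of fibre type, of other cells and of RNA quality (the beta-actin and Gapdh ratios above) in the subunit differences was not tested.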

How the data were processed

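Affymetrix probe set intensities were taken as deposited. How the authors made the deposited intensity values is not given in the sources used here. Tested on the values, the mean with 2% trimmed from each end was nearly equal on all arrays, and 1 to 3 probe sets per array were at 0. The number of arrays limits the precision. A floor at the 25th percentile (5.7) was set, and values were put on the log2 scale. After removal of 66 control probe sets, those with a mean reaching the median (27.7) were kept. Differences are HSL-null minus wildtype, with a standard error from duplicates, and no p-value was computed. Gene symbols came from the platform annotation, and all 71 gene IDs matched a RefSeq table (GRCm38.p6). Arrays of a genotype were taken as duplicates of 1 pool.

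Values on every array are given for isoform pairs, for the highest and lowest gene of each complex, for up to 4 further genes per complex without overlap, and for complex II, Cyc1 and Cycs. In other lists up to 3 genes without overlap were named. Members and lists were chosen with earlier results of these data known. Alternatives covered scaling, floor, filter, fold, arrays left out, a replicate block and the choice of probe set. Python 3.11.15, numpy 2.4.6, pandas 2.3.3, R 4.3.3 and limma 3.58.1 were used.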

Additional observations from a re-analysis of the deposited data

How the results depend on the processing

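No subunit gene was separated at 1.5-fold under the alternatives run (scalings, floors, filters, an array left out, the replicate block, other probe sets). The 1.2-fold and 2-fold limits were tried only with all other settings as in the report, and there too the count was 0. Quantile normalization lowered the median log2 difference of all subunit genes to 0.013. By complex the median was then -0.0014 (I), 0.014 (II), 0.033 (III), 0.0071 (IV) and 0.015 (V). Of the 22 genes higher without overlap as deposited, 19 stayed above 0. Sdhb (-0.0095) and Uqcrh (-0.015) were among those that did not. The cause was not tested. Quantile normalization left 14 genes higher and 8 lower without overlap, against 22 and 1 as deposited, and cyclic loess left 22 and 6. Of all probe sets, quantile normalization left 20.1% higher and 20.7% lower, and cyclic loess 20.5% and 20.4%. Leaving out 1 array, which leaves 2 array pairs by construction, gave 38 to 46 genes without overlap, against 23. Of these 29 to 39 were higher and 2 to 16 lower (16 without HSL-null 1, 15 without wildtype 2), beside 32.8% to 35.4% higher and 35.3% to 36.5% lower among all probe sets. The median then lay between 0.0031 (without HSL-null 1) and 0.060 for complex I and between 0.052 (without HSL-null 1) and 0.091 for complex III. It was 0.0034 for complex II and 0.023 for complex IV without wildtype 2, 0.022 for complex IV without HSL-null 1 and 0.0068 for complex V without wildtype 1. Cycs was at -0.055 without HSL-null 2. With the replicate number as a block, 34 genes had one sign on both same-numbered array pairs, 27 higher and 7 lower, beside 25.4% and 27.0% of all probe sets. The labels give these numbers no meaning as pairs, and the duplicate differences of same-numbered arrays correlated at -0.087 over all probe sets kept and at 0.62 over the 64 subunit genes. The 0.62 rests largely on Atp5g1, whose duplicates differed by 1.27 in HSL-null and 1.77 in wildtype. Over the 64 genes the standard deviations of these differences were 0.20 and 0.26. The correlation was not computed without Atp5g1. Counting Ndufa4 in complex I was not run, since no probe set with that single symbol was used, and no shift was computed for Cox8b or Cox4i1. With 1 pool per genotype, the duplicates limit only array error, and nothing here measures variation between animals.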
